A study of Mus musculus with 15 samples.

Results

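Replication-dependent histone genes are the genes that supply histone proteins for newly made DNA, and their RNA was described here in mouse pre-B cells with and without an Msl2 knockout. Members were all genes of the count tables whose mouse symbol starts with Hist1h, Hist2h, Hist3h or Hist4h. This gave 70 genes of 55335, of which 58 had enough reads to be tested among 13077 tested genes. By class, the 58 tested members were 5 linker histone H1 genes, 14 H2A, 16 H2B, 10 H3 and 13 H4 genes. By cluster, 50 lay in Hist1 on chromosome 13, 5 in Hist2 on chromosome 3, 2 in Hist3 on chromosome 11, and 1 was Hist4h4 on chromosome 6.

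The KO group was 3 RNA libraries of an Msl2 knockout line, made per the labels with CRISPR/Cas9 and a guide RNA against Msl2. The WT group was 3 RNA libraries of the wt clone. Per the labels, both lines come from bone marrow pre-B cells that lack SLP65, the signalling adaptor encoded by Blnk, were derived from a single cell, were grown with interleukin 7 and had no treatment. Per the design text, the comparison concerns gene expression with and without Msl2. Each genotype is 1 line, and the labels do not say that its libraries are separate cultures. The p-values therefore rest on a spread between libraries that may be technical.

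Histone genes of this kind are transcribed in S phase, when the supply of histones has to follow DNA replication. Most of their messenger RNAs carry no poly(A) tail and end in a stem-loop that is bound by SLBP, and the activator NPAT gathers at the gene clusters in histone locus bodies. Core histones H2A, H2B, H3 and H4 form the nucleosome, and H1 binds the linker DNA between nucleosomes. MSL2 belongs to the MSL complex, whose enzyme KAT8 (MOF) acetylates histone H4. Libraries here were made from total RNA after removal of ribosomal RNA, so RNAs without a poly(A) tail were kept.

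Groups follow the sample titles, because the genotype tags give the opposite genotype for all 6 RNA libraries. Msl2 RNA had 105, 103 and 121 CPM in the KO libraries, against 97.1, 99.3 and 92.3 CPM in the WT libraries, so it was lost in neither group and did not settle the labels. Total counts were 14092278 to 20803227 per library. All levels are in CPM (gene counts relative to library size, scaled by TMM). The 15 tested pre-B markers summed to 4583 to 4668 CPM in KO and 4368 to 4697 CPM in WT. EdgeR called 1 of them, Il7r, lower and 0 higher in KO, against 2.79% and 1.8% of all tested genes. Single markers ran between log2 fold changes of -1.53 (Il7r) and 2.23. At an edgeR unadjusted p under 0.05 there were 4, against 15.4% of all tested genes. The groups did not overlap for 2 with KO above and 3 with KO below, against 9.68% and 11.2% of all tested genes. Of the markers of other cells, 3 of 15 T and natural killer, 2 of 13 myeloid, 4 of 12 erythroid and megakaryocyte and 2 of 10 stromal genes were tested. Their sums were 4.62 to 10.5 CPM in KO and 10.2 to 19.0 CPM in WT for T and natural killer cells, and 3.19 to 4.49 CPM in KO and 2.59 to 5.08 CPM in WT for myeloid cells. They were 132 to 191 CPM in KO and 148 to 172 CPM in WT for erythroid cells, and 117 to 132 CPM in KO and 105 to 124 CPM in WT for stroma. The erythroid sum was mostly Hbb-bt and the stromal sum mostly Pecam1, and Thy1, Lyz2, Pf4, Col3a1 and Dcn had 0 reads in all 6 libraries. Lat, a T cell adaptor, was called lower in KO (log2 fold change -1.68, edgeR adjusted p = 0.015), a call lost without WT replicate 1. Gata1, an erythroid transcription factor, was also called lower (log2 fold change -2.88, edgeR adjusted p = 0.00458). Blnk RNA, despite the labelled lack of SLP65, had 116, 111 and 108 CPM in the KO libraries, against 83.2, 119.6 and 92.2 CPM in the WT libraries.

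Promoters of the members carry short elements that differ by histone class. RefSeq (GRCm38.p6, which is mm10) gave 62 members a window from 250 bases before to 50 after the start site. The 5 stretches shown are the 150 bases before the start of Hist1h1b (chr13:21780626-21780775, minus strand), Hist1h2bm (chr13:21721894-21722043, plus strand), Hist1h2bk (chr13:22035671-22035820, plus strand), Hist1h4k (chr13:21750554-21750703, minus strand) and Hist1h4d (chr13:23581418-23581567, plus strand). Hist1h1b, Hist1h2bm and Hist1h4k had positive fold changes in KO, whereas Hist1h2bk (H2B) and Hist1h4d (H4) had values near 0. None of the 5 was called in the main comparison, and no other H1 promoter is shown beside Hist1h1b. The fold changes are given further on. Capitals mark matches, on either strand, to the TATA box (searched as TATAAA), the CCAAT box (by those letters), the octamer (searched as ATTTGCAT), the H1 box (searched as AAACACA), the H4 element (searched as GGTCCG) and the core of the YY1 motif (searched as GCCATNTT).
Hist1h1b: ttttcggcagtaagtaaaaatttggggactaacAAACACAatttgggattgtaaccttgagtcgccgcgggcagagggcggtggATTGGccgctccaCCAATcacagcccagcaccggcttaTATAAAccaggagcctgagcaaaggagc
Hist1h2bm: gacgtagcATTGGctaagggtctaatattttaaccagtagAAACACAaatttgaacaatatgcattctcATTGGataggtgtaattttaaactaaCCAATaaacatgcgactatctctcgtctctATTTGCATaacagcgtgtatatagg
Hist1h2bk: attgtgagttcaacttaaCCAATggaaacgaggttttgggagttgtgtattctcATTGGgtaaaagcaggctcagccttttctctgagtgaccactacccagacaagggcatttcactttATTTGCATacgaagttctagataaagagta
Hist1h4k: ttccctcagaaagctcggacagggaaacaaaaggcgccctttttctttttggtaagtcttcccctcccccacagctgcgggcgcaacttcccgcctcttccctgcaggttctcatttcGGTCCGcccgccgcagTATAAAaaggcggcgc
Hist1h4d: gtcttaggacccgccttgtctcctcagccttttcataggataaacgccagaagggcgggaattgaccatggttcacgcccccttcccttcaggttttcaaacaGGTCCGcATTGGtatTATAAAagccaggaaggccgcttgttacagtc
Reading from the start site, Hist1h1b held an H1 box whose first base is at -117, CCAAT boxes at -66 and -53 and a TATA box at -28. Hist1h2bm and Hist1h2bk each held an octamer, at -25 and -30, and Hist1h2bm also held an H1 box at -110. CCAAT boxes lay at -142, -81 and -55 in Hist1h2bm, at -132 and -96 in Hist1h2bk and at -40 in Hist1h4d. Hist1h4k and Hist1h4d held an H4 element, at -32 and -47, and a TATA box, at -16 and -32. None of the 5 stretches held the YY1 core in these letters.

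Across the windows, a CCAAT box was found in all 6 H1, all 18 H2A, all 16 H2B and all 10 H3 windows but in 3 of 12 H4 windows (25%), against 37.4% of all 32851 promoter windows of the same length. The TATA box was found in 35 of 62 member windows (56.5%), against 13.6% of all windows. Octamers lay in 7 of 18 H2A windows and 7 of 16 H2B windows and in 0 windows of the other classes, against 1.74% of all windows, and the windows of divergent H2A and H2B genes can overlap. An H1 box lay in 5 of 6 H1 windows, 2 of 18 H2A windows and 2 of 16 H2B windows, against 7.18% of all windows. An H4 element lay in 11 of 12 H4 windows, 1 of 16 H2B windows and 1 of 10 H3 windows, against 8.25% of all windows. The YY1 core lay in 6 of 62 member windows (9.68%), against 6.05% of all windows. These matches describe the letters of the windows and were not measured for binding here.

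Histone RNA was abundant in both groups, and no member separated them. Members took 1.97%, 1.78% and 1.97% of all counts in KO libraries 1, 2 and 3, against 1.38%, 1.60% and 2.11% in WT libraries 1, 2 and 3. The 58 tested members summed to 19692, 17335 and 19814 CPM in KO, against 13785, 15693 and 22094 CPM in WT. WT held both the lowest and the highest library, with all 3 KO libraries between them. The means were 18947 ± 1398 CPM in KO and 17191 ± 4352 CPM in WT (SD, n = 3 each), a log2 ratio of 0.14. That ratio was 0.0026 without WT replicate 1 and 0.36 without WT replicate 3. In bulk RNA, a larger share of cells making histone RNA and more histone RNA per cell cannot be told apart.

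**Figure D1:**
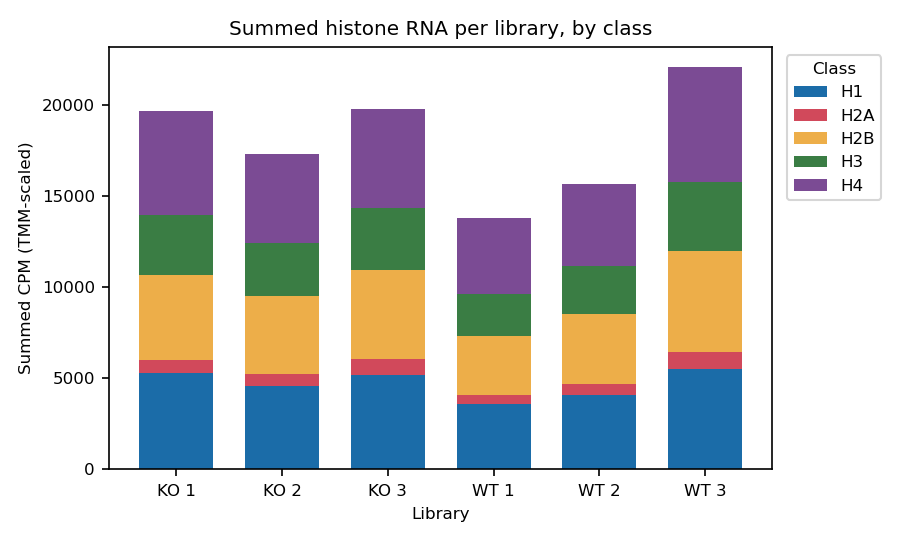
Summed TMM-scaled CPM of the 58 tested members in each library, KO left and WT right, stacked by histone class. The WT libraries run between 13785 and 22094 CPM and the KO libraries between 17335 and 19814 CPM, and H4 takes the largest part of every bar.

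At an edgeR adjusted p under 0.05, 0 of 58 tested members were called, against 4.59% of all tested genes (1.8% higher and 2.79% lower in KO). At an unadjusted p under 0.05, edgeR had 1 member, Hist1h1b, which was higher in KO, against 15.4% of all tested genes (6.94% higher and 8.43% lower in KO). At that threshold DESeq2 had 3 members and limma-voom had 4, and neither DESeq2 nor limma-voom called any at an adjusted p under 0.05. In 0 of 58 members did the KO and WT libraries fail to overlap, against 20.9% of all tested genes (9.68% with KO above WT and 11.2% with KO below). Log2 fold changes ran between -0.05 (Hist1h2ag) and 0.69 (Hist3h2a). They were positive in 51 of 58 members, against 51% of all tested genes, with a median of 0.09 beside 0.0040 for all tested genes. Without WT replicate 1, 26 of 58 were positive and the median was -0.03. Without WT replicate 3, all 58 were positive, the median was 0.35 and edgeR called 14 higher in KO, against 1.38% of 13584 genes tested in that fit.

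The members moved together from library to library, mostly within WT. WT replicate 1 was the lowest of the 6 libraries for 49 of 58 members, and lay below every KO library for 54. WT replicate 3 was the highest library for 39 members. Per member, the level in WT replicate 3 was a median 1.64 times that in WT replicate 1, against 1.00 over all tested genes, and it was at least 1.3 times in 54 members (93.1%), against 6.89% of all tested genes. The median SD of log2 CPM among KO libraries was 0.14 for the members and 0.13 for all tested genes. Among WT libraries it was 0.39 for the members and 0.15 for all tested genes. The WT libraries spanned a wider range than the KO libraries in 57 of 58 members.

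Relative to each gene's mean over the 6 libraries, the median member stood at 0.11, -0.05 and 0.21 in KO and at -0.39, -0.15 and 0.34 in WT, on the log2 scale. Small RNAs that also lack a poly(A) tail, such as Rn7sk, stood at medians of 0.18, -0.11 and -0.23 in KO and -0.02, 0.11 and 0.04 in WT (11 tested genes, 0 called by edgeR, 0 at an unadjusted p under 0.05, median log2 fold change -0.01). Genes of DNA synthesis stood at 0.00, -0.06 and 0.11 in KO and -0.07, -0.10 and 0.10 in WT (36 tested genes). The median SD of log2 CPM among WT libraries was 0.19 for the small RNAs and 0.11 for the DNA synthesis genes, against 0.39 for the members. Among KO libraries it was 0.33 for the small RNAs and 0.10 for the DNA synthesis genes, against 0.14 for the members. The part of either list in the members' library pattern was not tested.

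**Figure D2:**
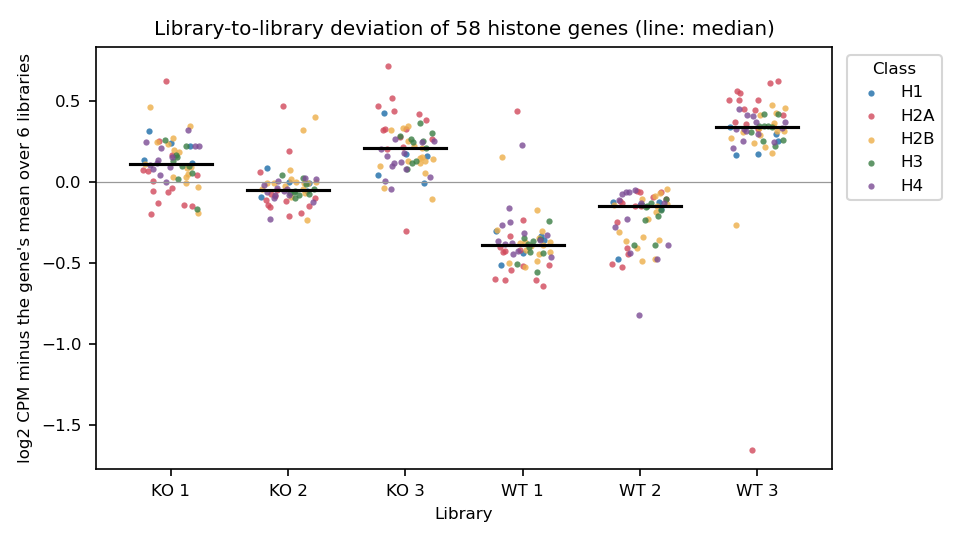
Deviation of each of the 58 tested members from its own mean over 6 libraries (log2 CPM, vertical axis), by library, KO left and WT right, with classes in colour and the library median as a bar. The medians of WT replicates 1 and 3 are -0.39 and 0.34, and those of the KO libraries lie between -0.05 and 0.21.

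The mean shares of the classes differed by less than 1 percentage point between KO and WT. H1 made up 26.8%, 26.4% and 26.1% of the members' summed CPM in KO libraries 1, 2 and 3, against 25.8%, 26.0% and 24.8% in WT libraries 1, 2 and 3. Every KO library lay above every WT library, but only just, with KO replicate 3 at 26.06% and WT replicate 2 at 26.02%. The groups overlapped in the other classes. The H1 means were 26.4 ± 0.389% in KO and 25.5 ± 0.643% in WT (SD, n = 3 each). H2A made up 3.92 ± 0.428% in KO and 3.93 ± 0.381% in WT, H2B 24.4 ± 0.604% in KO and 24.4 ± 0.582% in WT, and H3 16.8 ± 0.270% in KO and 16.8 ± 0.326% in WT. H4 made up 28.4 ± 0.791% in KO and 29.3 ± 0.832% in WT. Median log2 fold changes were 0.16 for H1, 0.07 for H2A, 0.14 for H2B, 0.10 for H3 and 0.07 for H4. Without WT replicate 1 the medians were 0.03 for H1, -0.08 for H2A, 0.0036 for H2B, -0.04 for H3 and -0.05 for H4.

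All 5 linker histone genes had positive log2 fold changes, and none was called. Hist1h1b (H1f5, chr13:21779832-21780625) had the smallest p of all members. It had 700.1, 597 and 758 CPM in the KO libraries, against 395, 405 and 631 CPM in the WT libraries. WT replicate 3 lay above KO replicate 2, so the groups overlapped (log2 fold change 0.52 ± 0.17 SE, edgeR unadjusted p = 0.0111, adjusted p = 0.133). Over the fits that left out 1 library, its adjusted p ran between 0.00455 and 0.385.

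Hist1h1a (H1f1, chr13:23763668-23764412), the H1 gene with the highest level, had 1679, 1544 and 1735 CPM in the KO libraries, against 1211, 1383 and 1845 CPM in the WT libraries (log2 fold change 0.16 ± 0.14 SE). Hist1h1e (H1f4, chr13:23621777-23622558) had 1290.1, 1092 and 1227 CPM in the KO libraries, against 805, 987 and 1229 CPM in the WT libraries (log2 fold change 0.26 ± 0.14 SE). Hist1h1c (H1f2, chr13:23738807-23739531) had 855, 703 and 729 CPM in the KO libraries, against 581, 673 and 900.0 CPM in the WT libraries (log2 fold change 0.09 ± 0.15 SE). In all 3, WT replicate 1 was the lowest library, and WT replicate 3 was above KO replicate 2, so the groups overlapped. The fifth H1 gene, Hist1h1d, averaged 707 ± 55.7 CPM in KO and 689 ± 164 CPM in WT (SD, n = 3 each).

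H2A genes had lower levels per length than most genes of the other core classes. Levels between genes were compared as CPM per kb of RefSeq span, for the 52 tested members whose span is under 1000 bases. The highest H2A means were 273 CPM per kb in KO and 209.9 CPM per kb in WT for Hist1h2ak and 269 CPM per kb in KO and 271 CPM per kb in WT for Hist1h2ab. Each lay below the KO and WT means of every plotted H2B gene except Hist3h2bb-ps, every plotted H3 gene except Hist2h3c2 and every H4 gene except Hist1h4b and Hist1h4m. Genes of a class have near-identical coding sequences, and how reads with several matches were counted is not given in the sources used here, so levels of single genes carry that uncertainty.

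Of 14 tested H2A genes, 9 had positive values. Hist1h2ak (H2ac15, chr13:21753377-21753912) had 149, 121 and 169 CPM in the KO libraries, against 85.6, 91.7 and 160.3 CPM in the WT libraries. It overlapped between groups only through WT replicate 3 (log2 fold change 0.38 ± 0.21 SE, edgeR unadjusted p = 0.109, adjusted p = 0.481). Hist1h2ab (H2ac4, chr13:23751088-23751592) had 134, 120.2 and 154 CPM in the KO libraries, against 99.4, 122 and 189.7 CPM in the WT libraries (log2 fold change -0.01 ± 0.20 SE). Hist1h2ae (H2ac8, chr13:23570663-23571220) had 89.0, 85.6 and 108 CPM in the KO libraries, against 69.5, 89.4 and 126 CPM in the WT libraries (log2 fold change -0.02 ± 0.18 SE). For both, WT replicate 1 was the lowest and WT replicate 3 the highest of the 6 libraries. Hist1h2ag (H2ac11, chr13:22042478-22042949), with the lowest log2 fold change of the members, had 26.9, 28.0 and 38.7 CPM in the KO libraries, against 22.9, 28.4 and 45.6 CPM in the WT libraries (-0.05 ± 0.23 SE on the log2 scale), again with the KO libraries inside the WT range.

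All 16 tested H2B genes had positive values, from 0.01 to 0.40. Hist1h2bm (H2bc14, chr13:21722044-21722526), whose promoter is shown above, had 518, 451 and 545 CPM in the KO libraries, against 298, 306 and 541 CPM in the WT libraries. KO replicate 2 lay below WT replicate 3, while WT replicates 1 and 2 lay well below all KO libraries (log2 fold change 0.40 ± 0.20 SE, edgeR unadjusted p = 0.0696, adjusted p = 0.384). Hist1h2bn (H2bc15, chr13:21754076-21754553) also had WT replicates 1 and 2 below all KO libraries, with 323, 269 and 345 CPM in the KO libraries, against 211, 207 and 323 CPM in the WT libraries (log2 fold change 0.34 ± 0.16 SE, edgeR unadjusted p = 0.0645, adjusted p = 0.37).

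The other H2B genes with the highest levels had WT replicate 2 close below the lowest KO library, and smaller fold changes. Hist1h2bb (H2bc3, chr13:23746734-23747223) had 693, 639 and 745 CPM in the KO libraries, against 526, 604 and 860.3 CPM in the WT libraries (log2 fold change 0.06 ± 0.16 SE). Hist1h2be (H2bc6, chr13:23583670-23621124) had 655, 613 and 639.8 CPM in the KO libraries, against 469, 588 and 766 CPM in the WT libraries (log2 fold change 0.07 ± 0.15 SE), and its long span overlaps the noncoding RNA gene Gm33387, whose reads cannot be told apart from it without the strand setting. Hist1h2bk, the second H2B promoter shown, averaged 438 ± 33.0 CPM in KO and 436 ± 124 CPM in WT (SD, n = 3 each; log2 fold change 0.01 ± 0.16 SE). In Hist1h2bb and Hist1h2be, the KO libraries lay between WT replicates 2 and 3.

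H3 genes were positive in 10 of 10 tested members, with log2 fold changes from 0.05 to 0.36. Hist1h3f (H3c7, chr13:23544052-23544954), one of the 3 with the highest CPM, had 734, 633 and 714 CPM in the KO libraries, against 499.5, 592 and 837 CPM in the WT libraries (log2 fold change 0.11 ± 0.16 SE). The other top H3 genes, Hist1h3e and Hist1h3c, had log2 fold changes of 0.06 and 0.07. Hist1h3i (H3c11, chr13:21782915-21783397), with the smallest p of the class, had 203, 174 and 206 CPM in the KO libraries, against 119, 129 and 209 CPM in the WT libraries. All KO libraries were above WT replicates 1 and 2 and below WT replicate 3 (log2 fold change 0.35 ± 0.18 SE, edgeR unadjusted p = 0.0839, adjusted p = 0.425).

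H4 genes held the highest level per length of the plotted members. Hist1h4d (H4c4, chr13:23581568-23581969) reached 2948 CPM per kb in KO and 3004 CPM per kb in WT. Its libraries had 1290.3, 1111 and 1154 CPM in the KO libraries, against 1067, 1140.2 and 1415 CPM in the WT libraries, with the KO libraries inside the WT range (log2 fold change -0.03 ± 0.11 SE). Hist1h4h and Hist1h4f, the next in CPM, had log2 fold changes of 0.08 and 0.06.

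Hist1h4k (H4c12, chr13:21750145-21750553) had the smallest p among H4 genes. It had 610.3, 498 and 581 CPM in the KO libraries, against 381, 352 and 579.8 CPM in the WT libraries. KO replicate 2 lay below WT replicate 3, and WT replicates 1 and 2 lay below all KO libraries (log2 fold change 0.36 ± 0.17 SE, edgeR unadjusted p = 0.0545, adjusted p = 0.34). Hist1h4b (H4c2, chr13:23756937-23757386), the H4 gene with the lowest log2 fold change, averaged 25.1 ± 3.47 CPM in KO and 25.5 ± 7.60 CPM in WT (SD, n = 3 each; log2 fold change -0.03 ± 0.19 SE). Of the 13 tested H4 genes, 11 had positive values.

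**Figure D3:**
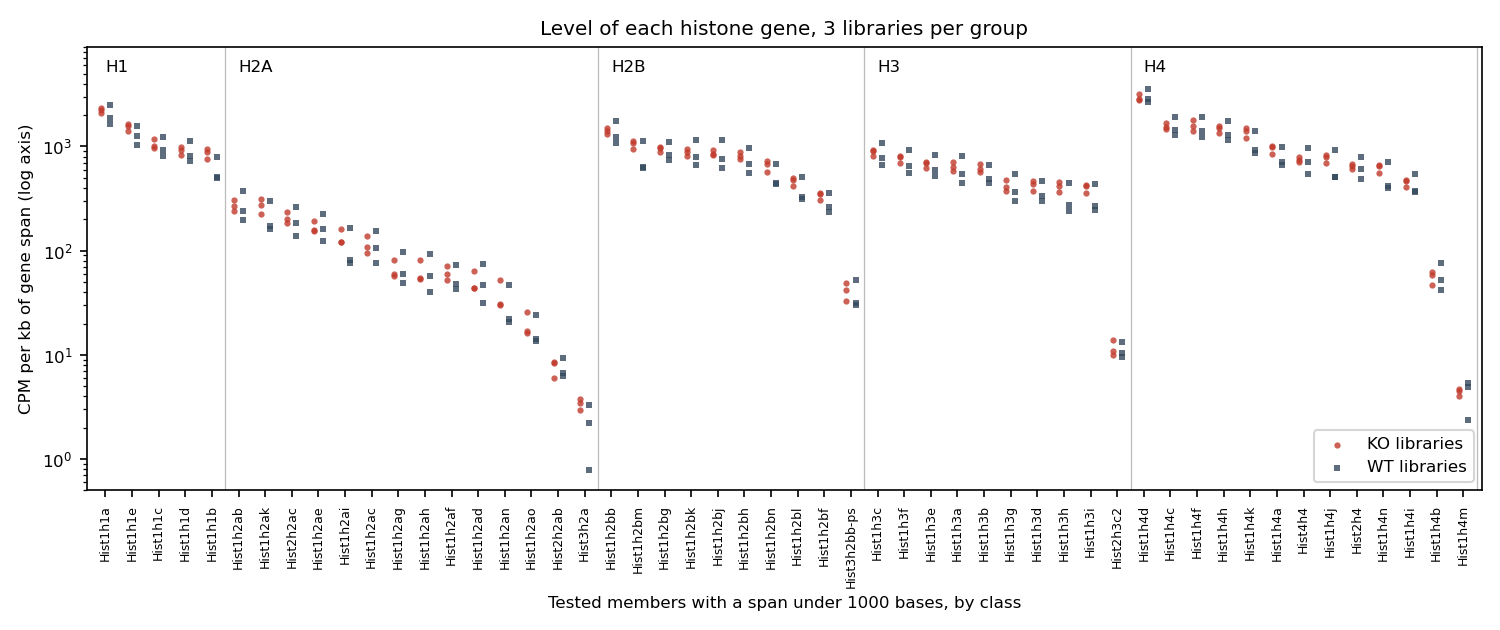
Level of 52 tested members with a span under 1000 bases, as CPM per kb of RefSeq span on a log axis, ordered by mean within each class, with the 3 KO libraries left of the 3 WT libraries for every gene. H2A genes lie lower than most genes of the other classes, and no gene has its KO and WT points fully apart.

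Outside the Hist1 cluster, 8 members were tested and none was called. Hist4h4 (H4f16, chr6:136803993-136804431) had 322, 309.7 and 351 CPM in the KO libraries, against 240.4, 312 and 428 CPM in the WT libraries (log2 fold change 0.00 ± 0.17 SE). Hist2h4 (H4c14, chr3:96262934-96263317) had 249, 236 and 262 CPM in the KO libraries, against 186, 231 and 301 CPM in the WT libraries (log2 fold change 0.05 ± 0.14 SE). In both, WT replicate 1 was lowest and WT replicate 3 highest, which is the pattern of most Hist1 members on another chromosome. Hist2h2ac averaged 97.1 ± 12.5 CPM in KO and 90.7 ± 29.4 CPM in WT (SD, n = 3 each), and Hist2h2be, Hist2h3c2 and Hist2h2ab had means under 10 CPM in both groups, with log2 fold changes of 0.28, 0.05 and 0.04.

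The Hist3 pair was low. Hist3h2a (H2aw, chr11:58954685-58955192) had 1.93, 1.74 and 1.52 CPM in the KO libraries, against 1.70, 1.13 and 0.398 CPM in the WT libraries (log2 fold change 0.69 ± 0.43 SE, edgeR unadjusted p = 0.136, adjusted p = 0.528). Its largest fold change of all members rests on few reads, WT replicate 3 was its lowest library, and its whole span lies inside the annotated gene Trim17. Hist3h2bb-ps, named as a pseudogene, averaged 19.2 ± 3.80 CPM in KO and 17.6 ± 5.66 CPM in WT (SD, n = 3 each).

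Fold changes of the Hist1 members differed by position along the cluster. The 56 Hist1 members fall into blocks when gaps over 150 kb divide them. The first block spans chr13:21715711-21837530 (19 members, 17 tested), the second chr13:22035122-22043658 (5 members, all tested) and the third chr13:23531044-23764412 (29 members, 28 tested). The other 3 members, Hist1h2aa, Hist1h2ba and Hist1h2al, lie apart and were not tested. All 17 tested genes of the first block had positive log2 fold changes, from 0.07 to 0.52 with a median of 0.33. The second block ran between -0.05 and 0.08 (median 0.01), and 23 of 28 genes of the third block were positive, between -0.03 and 0.27 (median 0.07). Blocks were set after these values were seen, so their difference has no test.

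Fold changes are also given for the members with higher levels. Among members with a mean of at least 100 CPM, the 10 of the first block had log2 fold changes from 0.26 to 0.52 (median 0.35), and the 23 of the third block from -0.03 to 0.27 (median 0.08). The named genes Hist1h1b, Hist1h2ak, Hist1h2bm, Hist1h2bn, Hist1h3i and Hist1h4k all lie in the first block. Hist1h1a, Hist1h2ab, Hist1h2bb, Hist1h3f and Hist1h4d, of the same 5 classes, lie in the third block. Reads that a near-identical gene of the other block received cannot be told apart from the gene's own.

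**Figure D4:**
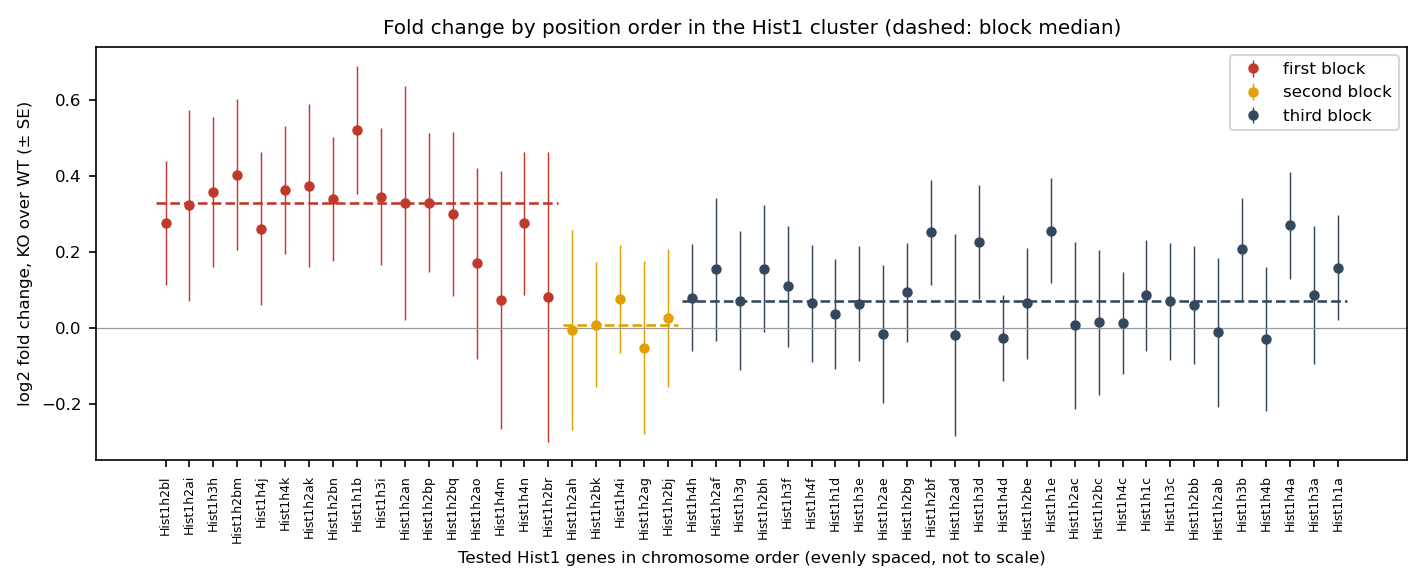
Log2 fold change, KO over WT, with SE for the 50 tested Hist1 members in chromosome order, evenly spaced. Points of the first block lie around its median of 0.33, and those of the second block around 0.01 and of the third block around 0.07.

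Setting the summed CPM of the first block over that of the third block compares the 2 within each library. The ratio was 0.258, 0.252 and 0.276 in KO libraries 1, 2 and 3, against 0.218, 0.192 and 0.235 in WT libraries 1, 2 and 3. All KO libraries lay above all WT libraries, with means of 0.262 ± 0.0125 in KO and 0.215 ± 0.0217 in WT (SD, n = 3 each), a KO over WT ratio of 1.22. Because the blocks were set from the fold changes of these same libraries, the ratio describes that choice and does not support it. By class, on the same genes and libraries, the KO over WT ratio was 1.30 for H1, 1.28 for H2A, 1.21 for H2B, 1.20 for H3 and 1.22 for H4. H1 has only 1 gene, Hist1h1b, in the first block.

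The difference of the block medians was 0.26 on the log2 scale and ran between 0.16 and 0.32 over the fits that left out 1 library. Without WT replicate 3, edgeR called 12 of 17 tested genes of the first block higher, against 1.38% of 13584 genes in that fit. It called 0 of 5 of the second and 2 of 28 of the third block (Hist1h2bf and Hist1h4a). With no filter on low counts, edgeR called 9 of 19 in the first block, 0 of 5 in the second and 0 of 29 in the third block, against 1.81% of 26696 genes. The smallest edgeR adjusted p of a member in that fit was 9.69e-07 (Hist1h1b), against 0.133 in the main fit. The log2 fold change of Hist1h1b moved little, between 0.51 and 0.55 over all alternatives other than those that left out 1 library. These calls therefore depended on the filter. The blocks were set after the fold changes of these libraries were seen, so these values do not test their difference.

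**Figure D5:**
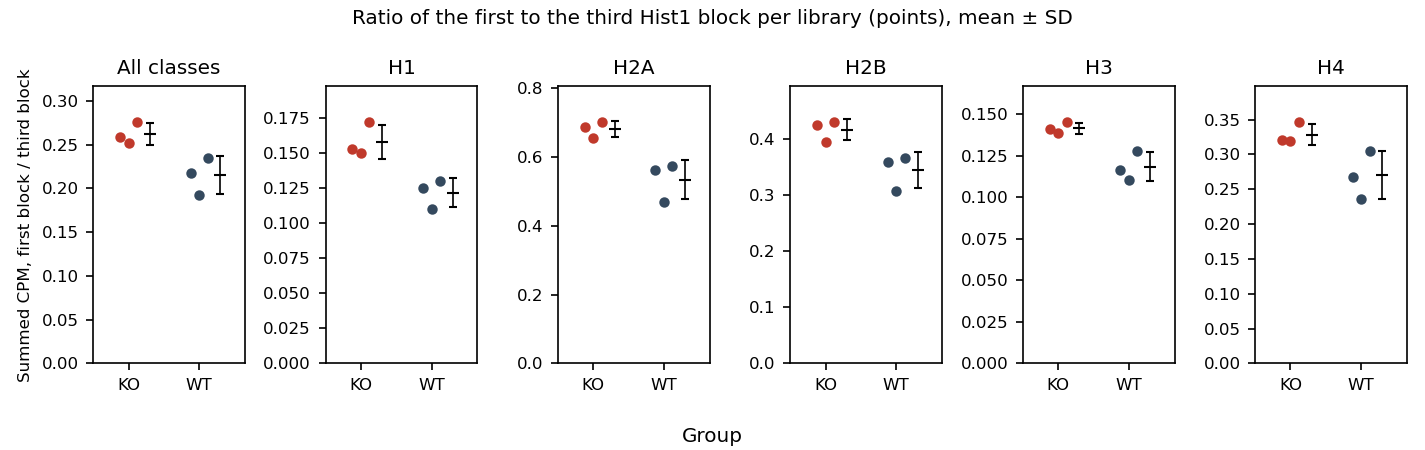
Summed CPM of the first Hist1 block over that of the third block, per library (points) with mean and SD (bars), for all members and for each class, KO left of WT in every panel. In each panel all KO points lie above all WT points, at 0.252 to 0.276 against 0.192 to 0.235 for all classes together.

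H2A and H2B genes often share a promoter region, read in opposite directions. The strand was known only for the 62 members with a promoter window, so neighbours such as Hist2h2be and Hist1h2bc could not be paired. Among those 62, RefSeq places 10 such divergent pairs, 163 to 280 bases apart, of which 8 had both genes tested. Both log2 fold changes were positive in 4 of these 8 pairs, and the largest gap within a pair was 0.27 (Hist1h2ad at -0.02 and Hist1h2bf at 0.25). The H2B gene had the higher level per kb in each of the 6 tested pairs with both spans under 1000 bases, by 2.40 to 13.9 times in KO and 2.46 to 13.8 times in WT. The smallest ratio was that of Hist1h2ak and Hist1h2bn, and the largest that of Hist1h2ah and Hist1h2bk.

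Too few reads kept 12 members out of the test. Of these, Hist2h2aa1, Hist2h2aa2, Hist2h3c1, Hist2h3b and Hist2h2bb had 0 reads in all 6 libraries, and 3 reads, the limit a count of 0 allows, equal 0.141 to 0.212 CPM depending on the library. Hist2h2aa1 and Hist2h2aa2 are duplicated genes, and how reads that match both were counted is not given in the sources used here. The other 7 had between 1 and 28 reads over the 6 libraries, and they include Hist1h1t, Hist1h2aa and Hist1h2ba, which are known for expression in testis. Among tested members, Hist1h2bq and Hist1h2br have promoter windows that are 100% identical. Their transcribed sequences were not compared here.

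Genes that make, process and handle histone RNA and protein had log2 fold changes between -0.23 and 0.29. Over all tested genes, edgeR called 4.59% and had 15.4% at an unadjusted p under 0.05. Of 16 genes of histone RNA 3′-end processing and decay, edgeR called 0 in either direction (1 at an unadjusted p under 0.05, DESeq2 0 called). Their median log2 fold change was 0.00047. The groups did not overlap for 1 with KO above and 0 with KO below, against 9.68% and 11.2% of all tested genes. Slbp, whose product binds the histone stem-loop, had 176, 167 and 179 CPM in the KO libraries, against 163, 148 and 195 CPM in the WT libraries (log2 fold change 0.05 ± 0.10 SE). WT replicate 3 was also its highest library, but WT replicate 2 was its lowest.

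Of 16 tested genes of histone transcription and the locus body, edgeR called 0 (1 at an unadjusted p under 0.05, DESeq2 0 called), with a median of 0.03. The shares over all tested genes were 4.59% and 15.4%. The groups did not overlap for 2 with KO above and 1 with KO below, against 9.68% and 11.2% of all tested genes. Npat, the activator of these genes, had 89.1, 83.5 and 84.2 CPM in the KO libraries, against 80.8, 88.8 and 86.7 CPM in the WT libraries (log2 fold change 0.00 ± 0.07 SE), with the groups overlapping. Of 27 tested histone chaperones, 0 were called by edgeR (0 at an unadjusted p under 0.05, DESeq2 0 called), with a median of 0.06. The groups did not overlap for 1 chaperone with KO above and 1 with KO below. Kat8, the acetyltransferase of the MSL complex, had 32.4, 31.0 and 30.5 CPM in the KO libraries, against 28.8, 28.2 and 31.8 CPM in the WT libraries (log2 fold change 0.08 ± 0.09 SE).

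By their median, replication-independent histone genes, most of whose RNAs carry poly(A) tails, did not show the spread of the members within WT. Their median SD of log2 CPM among WT libraries was 0.06 over 9 tested genes, and among KO libraries 0.11. EdgeR called 0 of the 9 (2 at an unadjusted p under 0.05), against 4.59% and 15.4% of all tested genes, and DESeq2 called 1, H2afy. The groups did not overlap for 3 with KO above and 1 with KO below, against 9.68% and 11.2% of all tested genes. H2afy, which encodes macroH2A, had 674, 589 and 607 CPM in the KO libraries, against 505, 549 and 527 CPM in the WT libraries (log2 fold change 0.24 ± 0.08 SE, edgeR unadjusted p = 0.0123, adjusted p = 0.142), with all KO libraries above all WT libraries. H3f3a and H3f3b, which both encode the replacement variant of H3, had log2 fold changes of 0.14 and -0.16, in opposite directions and each without overlap of the groups.

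The remaining 6 had positive values without a call. H2afz averaged 608 ± 14.5 CPM in KO and 570.2 ± 50.3 CPM in WT (SD, n = 3 each), H2afx 219 ± 26.2 CPM in KO and 201 ± 43.6 CPM in WT and Cenpa, the centromeric H3, 142 ± 10.7 CPM in KO and 134 ± 5.06 CPM in WT. H2afj, H2afv and H3f3c had log2 fold changes of 0.26, 0.05 and 0.28. For H2afj all KO libraries lay above all WT libraries (edgeR unadjusted p = 0.045, adjusted p = 0.307). H2afx differed from that median, with 160, 195 and 247 CPM in WT libraries 1, 2 and 3. Of the 6 libraries, WT replicate 1 was its lowest and WT replicate 3 its highest.

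Cell cycle genes were set beside the members because histone genes are read in S phase. Of 36 S phase genes, 22 were positive, against 51% of all tested genes, with a median log2 fold change of 0.04. EdgeR called 0 of them higher and 1 lower in KO, against 1.8% and 2.79% of all tested genes. The 1 was Mcm5, a subunit of the replicative helicase, with 369, 368 and 426 CPM in the KO libraries, against 509.7, 479 and 595 CPM in the WT libraries (log2 fold change -0.45 ± 0.10 SE, edgeR unadjusted p = 0.00112, adjusted p = 0.0316). Its call was lost without KO replicate 1 or 2 or WT replicate 1 or 3.

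Of 26 genes of G2 and mitosis, 3 were called higher and 0 lower, against 1.8% and 2.79% of all tested genes. At an edgeR unadjusted p under 0.05 there were 9, against 15.4% of all tested genes. All KO libraries lay above all WT libraries for 10 and below for 0, against 9.68% and 11.2% of all tested genes. All 26 had positive values (median 0.17), against 51% of all tested genes. Cenpf, a kinetochore protein, had 199, 177 and 178 CPM in the KO libraries, against 145, 151 and 148 CPM in the WT libraries (log2 fold change 0.32 ± 0.07 SE, edgeR unadjusted p = 0.00144, adjusted p = 0.0375). Cenpe, a kinetochore motor, had 229, 209 and 202 CPM in the KO libraries, against 171, 177 and 169.8 CPM in the WT libraries (log2 fold change 0.30 ± 0.07 SE, edgeR unadjusted p = 0.00207, adjusted p = 0.047). Kif23, a motor of cell division, had 146, 126 and 131 CPM in the KO libraries, against 96.7, 108 and 104 CPM in the WT libraries (log2 fold change 0.38 ± 0.08 SE, edgeR unadjusted p = 0.00077, adjusted p = 0.024). All KO libraries lay above all WT libraries for these 3, but at most 1 of them stayed called without any 1 library: Cenpf and Cenpe lost the call without each of the 6 and Kif23 without KO replicate 1 or 3 or WT replicate 1 or 2.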

How the data were processed

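RNA was measured in 6 libraries of mouse pre-B cells, 3 per group. The deposited files hold whole-number read counts per gene, as the values show, and were not normalised. Ribosomal RNA was removed from total RNA, per the labels' protocols. Among the tools and builds in the submitters' processing notes, which state no role or order, are mm10, limma, featureCounts 2.0.0 and STAR 2.5.3a. The sources used here do not give the annotation release, how strand was set or what was done with reads that match several places. For chromatin immunoprecipitation and its inputs, 9 samples are not analysed here.

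Symbols were found for 54587 of 55335 gene identifiers. After filterByExpr (13077 genes kept) and TMM scaling, KO was compared with WT by edgeR 4.0.16 (quasi-likelihood test, no covariate, R 4.3.3). Calls use a Benjamini-Hochberg adjusted p under 0.05, with the adjustment made across every tested gene. The common biological coefficient of variation was 0.109. SEs come from the fold change and the F statistic. Deviations and SDs of log2 CPM use a prior count of 2. Chi-square over degrees of freedom was 6.53 to 17.5 for pairs of replicates within a group, so none was one library deposited again. The limit for 0 reads (3 counts) covers counting error only. The fit was also run on simulated counts in which genes varied independently. The members moved together, so that run does not bear on them. Alternatives were RLE scaling, library totals, no filter, a cut on the mean log2 CPM (2), DESeq2 1.42.0, limma-voom (limma 3.58.1), a replicate block, and fits without each library or without both libraries numbered 2.

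Members and gene lists were chosen with earlier results of these data known. Named members were, per class, the 3 highest in CPM and the 1 with the smallest p, those outside Hist1, and the 3 highest and 3 lowest fold changes. Also named were Msl2, Blnk, Slbp, Npat, Kat8, the tested replication-independent histones and up to 3 called genes per list and direction. Further names, such as Hist1h1d and Hist1h2bk, illustrate a count or a pair and were chosen after their values were seen. The Hist1 blocks, and the alternatives run on them (also a gap of 250 kb and members of at least 100 CPM), were likewise chosen after the data were seen. Positions and promoter sequences are from RefSeq, GRCm38.p6, matched by symbol for all 70 members.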

Additional observations from a re-analysis of the deposited data

How the results depend on the processing

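The count of called members was 0 with RLE scaling, library totals, a cut on the mean log2 CPM, DESeq2 and limma-voom. With no filter on low counts it was 9, and all tested genes gave 482 higher and 721 lower calls, against 235 and 365. The cut on the mean log2 CPM (2) gave 231 lower calls, and DESeq2 called 1 replication-independent histone higher. Same-numbered libraries deviated together with correlations of 0.029, 0.21 and 0.40. KO replicates 1 and 3 correlated best with the WT library of their own number, and KO replicate 2 with WT replicate 1. The numbers were therefore not taken as pairs in the main fit. With the replicate block, 1 member (Hist1h1b, edgeR adjusted p = 0.0167) and 1 gene of 3′-end processing were called higher. So were 1 S phase gene and 5 G2 and mitosis genes, with 381 higher and 565 lower calls over all tested genes. In that fit 17 of 58 members had an unadjusted p under 0.05, against 1 in the main fit, so this count depended on the pairing choice. The share of all tested genes at that threshold was not taken for that fit. Without both libraries numbered 2, there were 224 lower calls, and 0 S phase genes were called lower and 0 G2 and mitosis genes higher. Leaving out 1 library at a time gave 0 to 14 called members, 26 to 58 positive members, 138 to 227 higher and 242 to 316 lower calls over all tested genes, 0 to 1 S phase calls lower and 0 to 1 G2 and mitosis calls higher. The median of the small RNAs without a poly(A) tail ran between -0.19 and 0.13. The difference between the medians of the first Hist1 block and the third block stayed positive in every alternative run, between 0.16 and 0.32. The blocks were set from the same libraries, so this does not test their difference.

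Signs changed for values near 0. Hist1h2ab was at 0.016 with library totals, 0.035 with limma-voom and 0.031 with the replicate block. Hist1h2ae was at 0.0092 with library totals, 0.018 with limma-voom, 0.015 with the replicate block and 0.011 without both libraries numbered 2. With no filter, Hist4h4 was at -0.0012 and Npat at -0.0015. Without both libraries numbered 2, H3f3c was at -0.027, Hist1h4b at 0.033, Hist2h2ab at -0.12 and Slbp at -0.0082. Over the fits without 1 library, 19 of 29 named members changed sign in at least 1. The log2 fold change of Hist1h1c ran between -0.047 and 0.28, of Hist1h2ab between -0.20 and 0.30, of Hist1h2ae between -0.20 and 0.24, and of Hist1h2ag between -0.25 and 0.28. It ran between -0.082 and 0.29 for Hist1h2bb, -0.091 and 0.27 for Hist1h2be, -0.077 and 0.30 for Hist1h3c, -0.076 and 0.29 for Hist1h3e, and -0.043 and 0.35 for Hist1h3f. Among H4 genes it ran between -0.20 and 0.23 for Hist1h4b, -0.11 and 0.10 for Hist1h4d, -0.071 and 0.28 for Hist1h4f, and -0.046 and 0.28 for Hist1h4h. Outside Hist1 it ran between -0.065 and 0.23 for Hist2h2ab, -0.098 and 0.37 for Hist2h2ac, -0.089 and 0.21 for Hist2h3c2, -0.098 and 0.25 for Hist2h4, -0.013 and 0.43 for Hist3h2bb-ps, and -0.18 and 0.25 for Hist4h4. It ran between -0.10 and 0.20 for H2afv, -0.012 and 0.30 for H2afx, -0.037 and 0.031 for Npat, and -0.042 and 0.16 for Slbp. The cause of these changes was not tested. With 3 libraries per group and the spread within WT, fold changes of the size of the members' median could not be told from 0.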

Other observations

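Protein-coding neighbours of the Hist1 blocks, within 500 kb, gave a view of the same chromosome regions without histone genes. Beside the first block 6 were tested, 3 with positive log2 fold changes between KO and WT, and their median was -0.05 (from -0.45 for Prss16 to 0.57 for Zscan12). EdgeR called 0 of them (1 at an unadjusted p under 0.05). All KO libraries lay above all WT libraries for Zscan26 alone, against 9.68% of all tested genes, with 26.6, 28.3 and 28.8 CPM in KO against 23.2, 24.8 and 23.8 CPM in WT. Beside the third block 3 were tested (Zfp322a, Abt1 and Slc17a4), with log2 fold changes from -0.23 to -0.02, 0 calls and 0 at an unadjusted p under 0.05. These neighbours were chosen after the blocks were set.

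Promoter elements were also counted by block. The octamer lay in 1 of 18 windows of the first block and in 6 of 26 windows of the third. The TATA box lay in 11 of 18 windows of the first block and 15 of 26 of the third, and the YY1 core in 1 of 18 windows of the first block and 4 of 26 of the third. These counts describe letters only, and the blocks were chosen after the fold changes were seen.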
